A study of Mus musculus with 7 samples.

Results

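The acute phase response is the change in the mix of proteins that the liver secretes after infection, injury or inflammation. It was examined here through 30 genes in the livers of obese mice with and without bitter melon juice. The genes were chosen by name, for their place in this response, and were found in the deposited table by their Ensembl gene IDs. They were chosen with earlier results of these data known, so the comparisons with all tested IDs below are descriptive. All 30 of the 30 IDs were present among the 33426 in the table, and all 30 were among the 20055 IDs tested, after the dimmest 40% by mean over the arrays had been set aside. The symbols used below are those given with the list of IDs, since the reference table used here pairs 0 Ensembl IDs with symbols.

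The samples were livers of 7 wild-type male C57BL/6J mice, an inbred strain prone to obesity on fatty food. Each mouse was made obese with a diet drawing 60% of its energy from fat, begun at 4 weeks of age and kept up to 16 weeks, and the same diet then went on for another 40 days in both groups. In the BMJ + DIO group, 4 mice were also given lyophilized bitter melon (Momordica charantia) juice extract by oral gavage, at 200 mg per kg body weight each day of those 40 days. In the DIO (diet-induced obesity) group, 3 mice had the diet with no juice. The labels describe no gavage for the DIO mice and no lean mice were analysed here, so juice and gavage cannot be told apart. The labels also give 16 weeks as the age of every mouse, although the 40 days come after that age.

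In an acute phase response, interleukin-6 from macrophages and other cells binds its receptor on hepatocytes and activates the transcription factor STAT3. Interleukin-1 acts beside it through NF-kB, and the C/EBP factors take part at many of the target genes. Hepatocytes then secrete serum amyloid A, orosomucoid, haptoglobin, fibrinogen and other plasma proteins, and SOCS3 limits the signal. In obesity, low-grade inflammation is known to raise several of these proteins. Whole liver was measured, so fewer cells of a type and less RNA per cell cannot be told apart. The lists of hepatocyte and other cell type markers were written in symbols and were not looked up for lack of paired IDs, so the tissue label was not checked against them.

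Many of these genes lie in clusters of related copies, which bears on what an array can separate. By symbol, RefSeq (GRCm38.p6) gave a gene position for 30 of the 30 genes and a promoter window for 24. Each window runs from 250 bases before to 50 after a transcript start of the gene. That start lies inside the gene's annotated limits for Saa1, Saa3, Orm3, Itih3, Serpina3n, Cp, Socs3, Stat3 and Mt1. The serum amyloid A genes lie side by side on chromosome 7, the orosomucoid genes on chromosome 4 and the metallothionein genes on chromosome 8. The windows of 7 genes are shown because these neighbours include genes that read alike and genes that differed on the arrays. The Saa1 (chr7:46742931-46743230, minus strand) and Saa2 (chr7:46751583-46751882, plus strand) windows were identical at 287 of 301 aligned positions (95.4%), and those of Orm2 (chr4:63362199-63362498, plus strand) and Orm3 (chr4:63355908-63356207, plus strand) at 264 of 305 (86.6%). Saa4 (chr7:46732554-46732853, minus strand) matched Saa1 at 50.7% of 355 aligned positions. Mt1 (chr8:94178839-94179138, plus strand) matched Mt2 (chr8:94172368-94172667, plus strand) at 49.4% of 358. The alignments allowed gaps and the identity of unrelated windows was not computed, so these 2 values are no sign of shared sequence. Probes read transcripts, whose likeness was not measured, so the identities of the windows do not show what the array separates. Capitals mark matches to the C/EBP letters TTNNGCAA in the serum amyloid A and orosomucoid windows and to the metal response letters TGCNCNC in the metallothionein windows, on either strand.
Saa1: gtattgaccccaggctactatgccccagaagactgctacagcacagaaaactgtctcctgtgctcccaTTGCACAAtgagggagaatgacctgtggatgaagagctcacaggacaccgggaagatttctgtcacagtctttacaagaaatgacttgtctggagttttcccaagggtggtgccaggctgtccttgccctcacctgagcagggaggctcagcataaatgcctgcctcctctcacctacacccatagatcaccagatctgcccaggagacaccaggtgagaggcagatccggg
Saa2: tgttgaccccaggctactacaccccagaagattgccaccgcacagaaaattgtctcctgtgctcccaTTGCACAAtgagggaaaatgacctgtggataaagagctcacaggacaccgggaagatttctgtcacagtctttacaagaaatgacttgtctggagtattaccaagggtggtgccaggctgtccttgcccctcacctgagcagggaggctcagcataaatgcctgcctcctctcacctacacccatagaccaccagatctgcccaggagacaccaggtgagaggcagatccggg
Saa4: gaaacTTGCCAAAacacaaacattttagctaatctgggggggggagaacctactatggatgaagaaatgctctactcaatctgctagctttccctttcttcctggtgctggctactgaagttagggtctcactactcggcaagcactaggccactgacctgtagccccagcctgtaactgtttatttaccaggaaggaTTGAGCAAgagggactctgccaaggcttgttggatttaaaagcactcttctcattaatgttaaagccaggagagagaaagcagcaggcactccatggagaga
Orm2: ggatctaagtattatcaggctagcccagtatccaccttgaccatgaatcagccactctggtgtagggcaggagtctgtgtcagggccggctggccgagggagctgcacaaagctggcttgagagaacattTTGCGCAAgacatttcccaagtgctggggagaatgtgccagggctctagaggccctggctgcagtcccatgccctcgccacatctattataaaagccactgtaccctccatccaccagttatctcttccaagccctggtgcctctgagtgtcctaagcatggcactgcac
Orm3: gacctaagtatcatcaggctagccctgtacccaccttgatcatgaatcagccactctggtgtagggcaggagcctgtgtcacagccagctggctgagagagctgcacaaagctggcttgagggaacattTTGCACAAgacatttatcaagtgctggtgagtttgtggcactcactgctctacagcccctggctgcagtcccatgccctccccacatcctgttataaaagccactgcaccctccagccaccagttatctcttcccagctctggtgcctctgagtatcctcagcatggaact
Mt1: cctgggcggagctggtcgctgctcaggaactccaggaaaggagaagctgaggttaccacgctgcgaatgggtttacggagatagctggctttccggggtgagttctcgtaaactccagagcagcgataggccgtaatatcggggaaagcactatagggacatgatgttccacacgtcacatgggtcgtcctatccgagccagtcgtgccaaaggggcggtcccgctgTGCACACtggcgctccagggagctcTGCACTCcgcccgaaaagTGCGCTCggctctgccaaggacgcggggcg
Mt2: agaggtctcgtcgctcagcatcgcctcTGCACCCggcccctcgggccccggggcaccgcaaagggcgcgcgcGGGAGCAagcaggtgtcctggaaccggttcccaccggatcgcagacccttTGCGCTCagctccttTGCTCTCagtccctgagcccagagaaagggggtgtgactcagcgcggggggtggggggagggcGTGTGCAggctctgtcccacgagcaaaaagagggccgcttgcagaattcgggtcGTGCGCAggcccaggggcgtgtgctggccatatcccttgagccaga

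The C/EBP letters occurred in 13 of the 25 windows of these genes (Cp has more than 1 window), or 52% of them, against 10.8% of all 32851 windows in the reference. In Saa1 and Saa2 the match began 182 and 183 bases before the transcript start on which the window is set, in Orm2 and Orm3 120 and 121 bases before it, and in Saa4 52 and 245 bases before it. The STAT letters TTCNNNGAA occurred in 6 windows (24%, against 8.3% of all windows), those of Fga, Fgb, Apcs, Itih4, Hamp and Socs3. The standard NF-kB consensus occurred in 0 windows (0%, against 8.46%), which says only that its letters are not in these stretches. The metal response letters occurred in 11 windows (44%, against 51.0%), with 3 matches in Mt1 and 6 in Mt2. Matches of different motifs overlapped in 0 cases, and related genes share sequence, so the windows are not independent of each other. A match is a description of the letters in the window.

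The main comparison asked how the acute phase genes differed between obese mice with and without the juice. Of the 30 genes, 27 had a higher mean in BMJ + DIO (90%), against 56.3% of all tested IDs. The exceptions were Hamp, Socs3 and, by 0.01 on the log2 scale, Crp. The median difference was 0.34 on the log2 scale, and 0.02 over all tested IDs. No gene passed the test: 0 of 30 reached a Benjamini-Hochberg adjusted p of 0.05 in limma, as 0% of all tested IDs did, and the adjusted p was 0.571 for 21 of the 30 and at most 0.995. At an unadjusted p under 0.05 there were 7 genes with a higher mean in BMJ + DIO (23.3%), against 3.63% of all tested IDs, and 1 with a lower mean (3.33%, against 2.78%). The 7 were Saa4, Serpina3n, Il6ra, Serpina3k, Itih4, C4b and Serpina3m, and the 1 was Socs3. The count of 7 depended on single arrays: it was 14 without DIO replicate 1 (against 20.5% of all IDs), 4 without DIO replicate 2 (against 1.31%), 3 without DIO replicate 3 (against 1.41%), and 4 when BMJ + DIO replicate 3 was left out (against 1.39%). It became 2 after quantile normalization, with 2 lower, Crp and Socs3. This is close to the shares of all IDs there (5.13% higher and 3.69% lower).

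For 8 genes every BMJ + DIO liver read higher than every DIO liver (26.7%, against 1.84% of all tested IDs), and for 0 genes every one read lower (0%, against 1.68%). These 8 were the first 6 of the 7 above with Itih3 and Lcn2. At least a 1.5-fold higher mean in BMJ + DIO was present in 7 genes (23.3%, against 3.38%), namely Saa4, Orm1, Orm2, Orm3, Lcn2, Apcs and Mt2, and a 1.5-fold lower mean in 0 (0%, against 1.68%). The 8 genes became 18 without DIO replicate 1 (against 26.8% of all IDs) and 13 when BMJ + DIO replicate 2 was left out (against 2.64%). The 7 became 4 without DIO replicate 3 (against 1.44%) and 3 when BMJ + DIO replicate 4 was left out (against 3.03%).

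Bright IDs as a whole read higher in BMJ + DIO, and 21 of the 30 genes averaged 7 or more on the log2 scale. Among all 1489 IDs of that brightness the mean was higher in BMJ + DIO in 85.0%, and the median difference was 0.22. Among the 21 genes 20 did, and their median was 0.33. Groups that did not overlap, with BMJ + DIO higher, made up 5.17% of these 1489 IDs and 6 of the 21 genes. An unadjusted p under 0.05 with BMJ + DIO higher held for 8.46% of the 1489 and for 6 of the 21. After cyclic loess, which evens out differences that follow brightness, the median over the 30 genes was 0.18 and the number without overlap was 2, Saa4 and Orm1, close to the share of all tested IDs (6.11%).

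**Figure D1:**
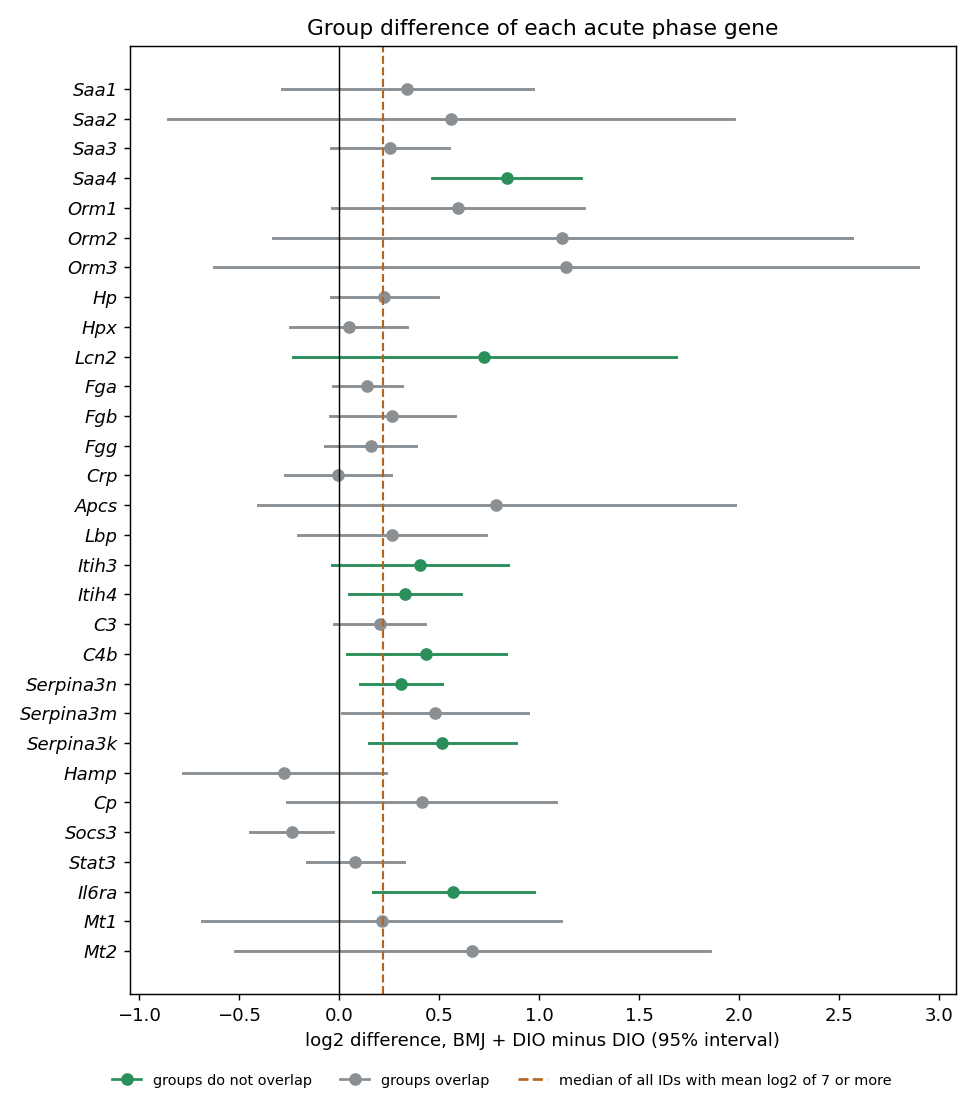
Each point is the log2 difference of 1 gene, BMJ + DIO (n = 4) minus DIO (n = 3), and each bar its 95% interval from limma; green marks the 8 genes whose groups did not overlap, and the dashed line is the median of all IDs that averaged 7 or more (0.22). Saa4 lies at 0.84, while the intervals of Orm2, Orm3, Saa2 and Apcs are wide and include 0.

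Serum amyloid A proteins are carried on high-density lipoprotein. Saa1 and Saa2 are the inducible liver forms, Saa3 is made largely outside hepatocytes in the mouse, and Saa4 is the constitutive form. Saa4 (ENSMUSG00000040017, chr7:46727992-46732603) read 9.80, 9.52 and 9.27 in DIO replicates 1 to 3 and 10.19, 10.29, 10.40 and 10.59 in BMJ + DIO replicates 1 to 4. The lowest treated liver thus lay above the highest control. The DIO mean was 9.53 ± 0.27 (SD, n = 3) and the BMJ + DIO mean 10.37 ± 0.17 (SD, n = 4). The juice group was 1.79-fold higher, or 0.84 on the log2 scale (standard error 0.15, 95% interval 0.46 to 1.21; limma, adjusted p = 0.571). This was the lowest unadjusted p of the 30 genes.

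Saa2 (ENSMUSG00000057465, chr7:46751833-46754313), in the same cluster as Saa4, gave another pattern. It read 7.73, 7.32 and 6.36 in DIO and 7.57, 7.07, 7.13 and 9.02 in BMJ + DIO. The groups overlapped: BMJ + DIO replicates 1 to 3 lay within the range of the DIO livers, and replicate 4 alone stood above, 3.39-fold over the mean of the other 3. The difference of 0.56 (standard error 0.58, interval -0.86 to 1.97) was smaller than the spread in either group (SD 0.70 and 0.91), and with DIO replicate 3 and BMJ + DIO replicate 4 both left out it turned to -0.27. Saa1 (ENSMUSG00000074115, chr7:46740497-46743181) read 3.90, 3.75 and 3.90 in DIO and 3.90, 4.58, 3.68 and 4.59 in BMJ + DIO, so that replicates 2 and 4 were the high livers and the others overlapped with DIO. RefSeq lists each of the names Saa1 and Saa2 as a synonym of the other gene, and close copies may share probe signal. Likeness was measured in the promoter windows and not in the transcripts, so sharing of probe signal was not tested. Saa3 (ENSMUSG00000040026) ran from 4.21 to 4.70 in DIO and from 4.67 to 4.84 in BMJ + DIO, a difference of 0.25 with an interval of -0.04 to 0.55.

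The orosomucoids (alpha-1-acid glycoproteins) bind drugs and dampen immune cell activity. All 3 had a higher mean in BMJ + DIO, by 0.59 for Orm1, 1.12 for Orm2 and 1.14 for Orm3, and the last pair were the 2 largest differences among the 30 genes. Orm2 (ENSMUSG00000061540) read 8.45, 7.93 and 6.70 in DIO and 8.63, 8.35, 8.25 and 10.01 in BMJ + DIO. Orm3 (ENSMUSG00000028359) read 6.59, 6.39 and 3.83 in DIO and 6.90, 6.16, 6.66 and 7.25 in BMJ + DIO. In both genes the groups overlapped, and DIO replicate 3 was the low liver. The intervals included 0 (-0.33 to 2.56 for Orm2 and -0.62 to 2.89 for Orm3, limma, adjusted p = 0.571 each).

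Orm1 (ENSMUSG00000039196) read 11.17, 10.85 and 10.16 in DIO against 11.15, 11.33, 11.17 and 11.63 in BMJ + DIO. DIO replicate 1 lay among the treated livers while the other controls lay below them all. Without DIO replicate 3 the difference was 0.62 in Orm2, 0.25 in Orm3 and 0.31 in Orm1. Without BMJ + DIO replicate 4 it was 0.72, 0.965 and 0.49. With both of these livers left out, BMJ + DIO replicates 1 to 3 exceeded DIO replicates 1 and 2 by 0.22 in Orm2, 0.08 in Orm3 and 0.21 in Orm1. The 3 orosomucoid genes are close copies, so probes may not separate them, which was not tested.

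**Figure D2:**
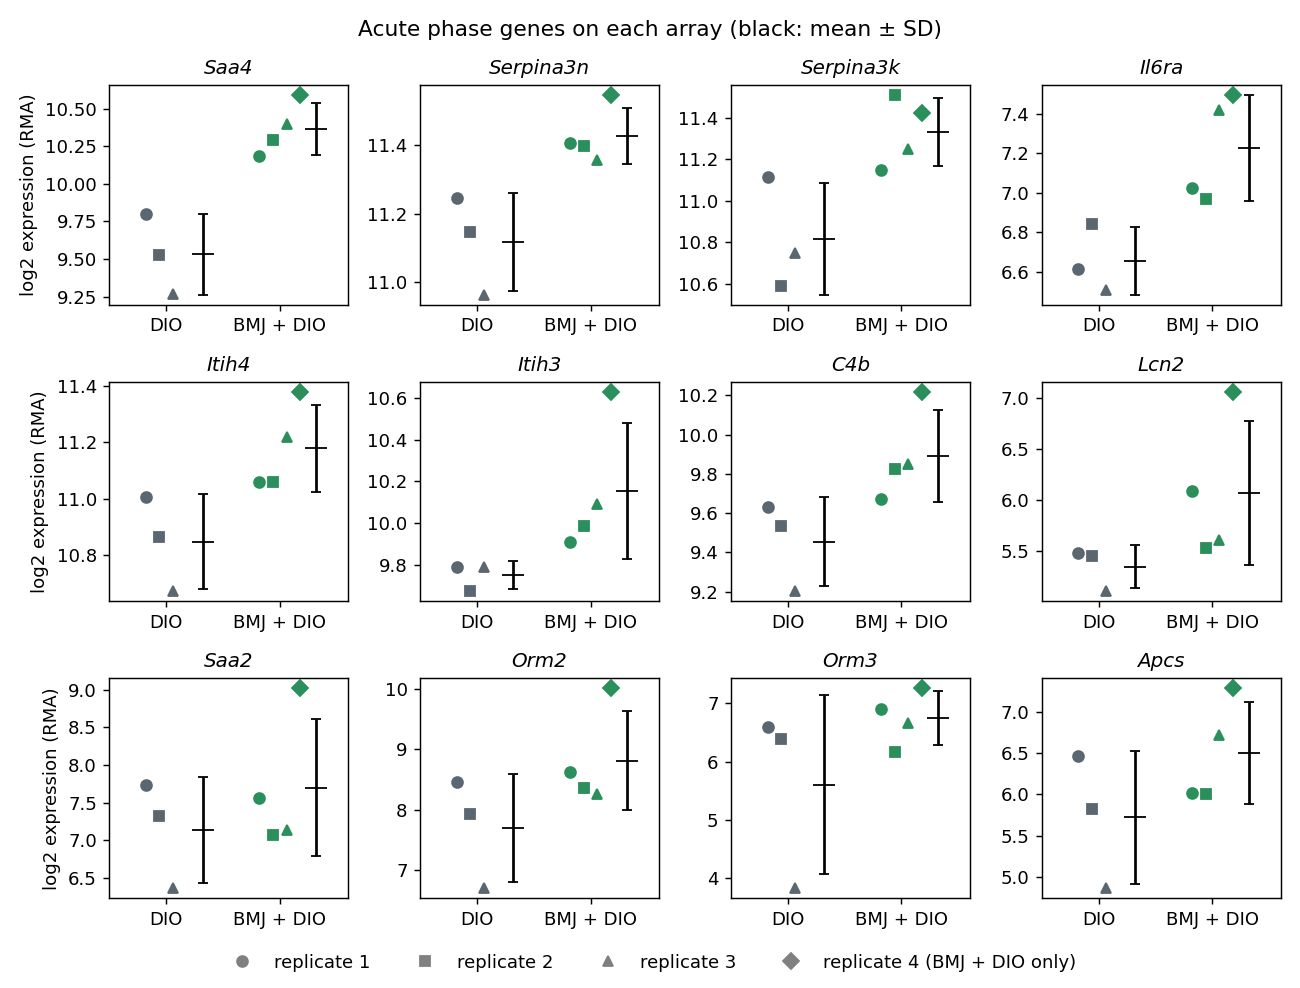
Each symbol is the log2 expression of 1 liver, in DIO (grey) and BMJ + DIO (green), with the group mean and SD in black; the vertical axes differ between genes. The 8 genes of the top 2 rows have groups without overlap, whereas Saa2, Orm2, Orm3 and Apcs below have a high BMJ + DIO replicate 4, a low DIO replicate 3 or both.

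The serpin A3 genes encode secreted inhibitors of serine proteases. They are the mouse relatives of human alpha-1-antichymotrypsin, and Serpina3n is a commonly used marker of inflammation among them. All 3 had a higher mean in BMJ + DIO and all 3 had an unadjusted p under 0.05. Serpina3n (ENSMUSG00000021091) read 11.25, 11.14 and 10.96 in DIO and 11.41, 11.40, 11.36 and 11.55 in BMJ + DIO. The groups were apart by a narrow gap, and the difference was 0.31 with an interval of 0.11 to 0.51 (limma, adjusted p = 0.571). After quantile normalization and cyclic loess the groups overlapped, with differences of 0.14 and 0.11. Serpina3k (ENSMUSG00000058207) read 11.12, 10.59 and 10.75 in DIO and 11.15, 11.51, 11.25 and 11.42 in BMJ + DIO, a difference of 0.52 with an interval of 0.15 to 0.89. DIO replicate 1 lay just below the lowest treated liver there. Serpina3m (ENSMUSG00000079012) read 9.27, 9.01 and 8.85 in DIO and 9.40, 9.16, 9.82 and 9.71 in BMJ + DIO, where replicate 2 lay among the controls, with a difference of 0.48 and an interval of 0.02 to 0.94. These 3 genes are also close copies, on chromosome 12.

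Inter-alpha-trypsin inhibitor heavy chains are plasma proteins that bind hyaluronan, and Itih4 is a known acute phase protein. Itih4 (ENSMUSG00000021922) read 11.01, 10.86 and 10.67 in DIO and 11.06, 11.06, 11.22 and 11.38 in BMJ + DIO. Itih3 (ENSMUSG00000006522) read 9.79, 9.67 and 9.79 in DIO and 9.91, 9.99, 10.09 and 10.63 in BMJ + DIO. Neither gene overlapped between the groups, with the nearest livers of Itih4 close together. The differences were 0.33 (interval 0.05 to 0.61) for Itih4 and 0.40 (interval -0.04 to 0.84) for Itih3. Without BMJ + DIO replicate 4 the Itih3 difference was 0.25. In both genes the groups overlapped after quantile normalization and cyclic loess, where the Itih4 difference was 0.10 and 0.12.

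C3 is the central component of complement and C4b belongs to its classical and lectin pathways. C4b (ENSMUSG00000073418) read 9.63, 9.53 and 9.20 in DIO and 9.67, 9.83, 9.85 and 10.22 in BMJ + DIO. The groups were just apart, with a difference of 0.44 and an interval of 0.04 to 0.83. They overlapped after quantile normalization and cyclic loess, with differences of 0.17 and 0.21. C3 (ENSMUSG00000024164) read 11.59, 11.51 and 11.29 in DIO and 11.58, 11.59, 11.69 and 11.81 in BMJ + DIO, an overlap through DIO replicate 1, with a difference of 0.20 and an interval of -0.03 to 0.43.

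Among the genes for haem and iron handling, lipocalin 2 and hepcidin had differences of opposite sign, neither past the test. Lcn2 (ENSMUSG00000026822) encodes a protein that withholds iron from bacteria by binding their siderophores, and is also abundant in neutrophils. It read 5.48, 5.45 and 5.10 in DIO and 6.09, 5.53, 5.60 and 7.06 in BMJ + DIO. Every treated liver was above every control, but replicates 2 and 3 only just, and replicate 4 was 2.50-fold over the mean of the other 3. The difference was 0.73 with an interval of -0.23 to 1.68, and 0.40 without that liver. Neutrophil markers could not be looked up, and their part in the result was not tested.

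Hamp (ENSMUSG00000050440), which encodes hepcidin, the hormone that blocks iron export, had a lower mean in BMJ + DIO. It read 6.79, 6.31 and 6.77 in DIO and 6.72, 5.97, 6.27 and 6.44 in BMJ + DIO, which overlapped, with a difference of -0.27 and an interval of -0.78 to 0.23 (limma, adjusted p = 0.578). Haptoglobin binds free haemoglobin, haemopexin binds haem and ceruloplasmin carries copper and oxidises iron. Hp (ENSMUSG00000031722) read 10.50, 10.35 and 10.18 in DIO and 10.43, 10.50, 10.59 and 10.76 in BMJ + DIO, with an overlap and a difference of 0.23 (interval -0.04 to 0.49). Cp (ENSMUSG00000003617) differed by 0.41 (interval -0.26 to 1.09) through DIO replicate 3, which read 7.94 against 8.71 to 9.16 on the other arrays. Hpx (ENSMUSG00000030895) differed by 0.05 (interval -0.25 to 0.34), a difference whose sign turned in 6 of the 16 alternative analyses.

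The fibrinogen genes encode the 3 chains of the clotting protein and are textbook targets of interleukin-6. They differed by little: 0.14 for Fga (ENSMUSG00000028001), 0.27 for Fgb and 0.16 for Fgg (ENSMUSG00000033860). Fgb (ENSMUSG00000033831) read 10.83, 10.61 and 10.37 in DIO and 10.72, 10.82, 10.90 and 11.04 in BMJ + DIO, and the groups overlapped in each of the 3 genes. The upper bounds of the intervals were 0.32, 0.58 and 0.39. After quantile normalization Fga and Fgg changed sign, to -0.08 and -0.00251, and after cyclic loess to -0.08 and -0.05.

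Proteins that recognise microbial surfaces gave unlike values. C-reactive protein (Crp, ENSMUSG00000037942), a major acute phase protein in humans but a modest one in the mouse, read 9.70, 9.54 and 9.37 in DIO and 9.37, 9.48, 9.57 and 9.71 in BMJ + DIO. The 2 groups spanned nearly the same values, with a difference of -0.01 and an interval of -0.27 to 0.26. Its sign turned under median centring, to 0.04. After quantile normalization the difference was -0.28 (limma, unadjusted p = 0.028, adjusted p = 0.539). After cyclic loess it was -0.23 (limma, unadjusted p = 0.066). Apcs (ENSMUSG00000026542) encodes serum amyloid P component, the pentraxin that responds strongly in the mouse. It read 6.47, 5.83 and 4.86 in DIO and 6.02, 6.00, 6.72 and 7.29 in BMJ + DIO, an overlap through DIO replicate 1 alone, with a difference of 0.79 and an interval of -0.41 to 1.98. Lbp (ENSMUSG00000016024), which hands bacterial lipopolysaccharide to its receptor complex, read 7.98, 7.94 and 7.36 in DIO and 8.02, 7.73, 8.17 and 8.19 in BMJ + DIO, with a difference of 0.26 (interval -0.21 to 0.74). The Lbp difference was 0.06 without DIO replicate 3, the low liver, and 0.01 with that array and BMJ + DIO replicate 4 both left out.

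In the signalling pathway itself the receptor and the feedback inhibitor had opposite signs. Il6ra (ENSMUSG00000027947) encodes the interleukin-6 receptor alpha chain. It read 6.61, 6.84 and 6.51 in DIO and 7.02, 6.97, 7.42 and 7.49 in BMJ + DIO, so all 4 treated livers were higher than all 3 controls. The mean was 1.49-fold higher, a difference of 0.57 (standard error 0.17, interval 0.17 to 0.98, limma, adjusted p = 0.571). After quantile normalization and cyclic loess the Il6ra groups overlapped, with differences of 0.36 and 0.34. Socs3 (ENSMUSG00000053113) encodes the protein that shuts off the receptor's signal and is itself a direct STAT3 target. It read 3.55, 3.81 and 3.77 in DIO and 3.55, 3.42, 3.36 and 3.55 in BMJ + DIO. No treated liver read above a control, and DIO replicate 1 tied with BMJ + DIO replicates 1 and 4, so the groups touched. The difference was -0.24 with an interval of -0.44 to -0.03. Socs3 is dim, with a mean of 3.57 over the 7 livers, against 6.98 for Il6ra. All IDs averaging 3 to 5 had a median difference of -0.02, and those averaging 5 to 7 had 0.16. Stat3 (ENSMUSG00000004040) read 6.47, 6.39 and 6.46 in DIO and 6.31, 6.47, 6.59 and 6.71 in BMJ + DIO, an overlap with a difference of 0.08 (interval -0.16 to 0.32) that changed sign under quantile normalization (-0.13) and cyclic loess (-0.14).

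Metallothioneins bind zinc and copper and respond to metals, glucocorticoids and interleukin-6. Mt1 (ENSMUSG00000031765, chr8:94178883-94180327) read 8.56, 8.75 and 9.10 in DIO and 9.30, 8.06, 9.28 and 9.42 in BMJ + DIO. Mt2 (ENSMUSG00000031762, chr8:94172618-94173567) read 7.18, 7.67 and 8.06 in DIO and 8.53, 7.10, 8.61 and 8.98 in BMJ + DIO. In both genes BMJ + DIO replicate 2 was the lowest of the 7 livers and the other 3 treated livers were higher than all controls. The difference was 0.21 (interval -0.68 to 1.11) in Mt1 and 0.67 (interval -0.52 to 1.85) in Mt2. When that liver was left out, the differences were 0.53 in Mt1 and 1.07 in Mt2 (limma, adjusted p = 0.659 for each). DIO replicate 3, the low liver for most of the other genes, was the highest control for both. The Mt1 difference changed sign under quantile normalization and cyclic loess, to -0.01 and -0.02.

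The livers themselves differed in these genes within each group. BMJ + DIO replicate 4 held the highest of the 7 values in 24 of the 30 genes (80%), against 12.3% of all tested IDs and 17.2% of those averaging 7 or more. It was above the mean of the other 3 treated livers in 29 of the 30 genes, by a median of 0.26. The median over all tested IDs was 0.01, and over those averaging 7 or more 0.04, and the share of IDs above that mean was not computed. BMJ + DIO replicate 4 was at least 2-fold above that mean in 4 genes, Saa2, Orm2, Lcn2 and Apcs (13.3%, against 0.514% of all tested IDs). This count was made after the values had been seen.

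DIO replicate 3 held the lowest of the 7 values in 19 of the 30 genes (63.3%), against 42.0% of all tested IDs and 83.5% of those averaging 7 or more, where 15 of the 21 genes did. That array also correlated less with the other 6 (mean Pearson r across genes 0.924, against 0.964 to 0.969), genes not being independent replicates. Its bright IDs read low in general, with a median deviation from the 7-array median of -0.57, and the 21 bright genes of this list read -0.39. The 4 genes at least 2-fold below the mean of the other DIO livers (13.3%, against 5.06%) were Saa2, Orm2, Orm3 and Apcs. The part of this array-wide deviation in the group differences was not tested beyond the alternatives given here.

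**Figure D3:**
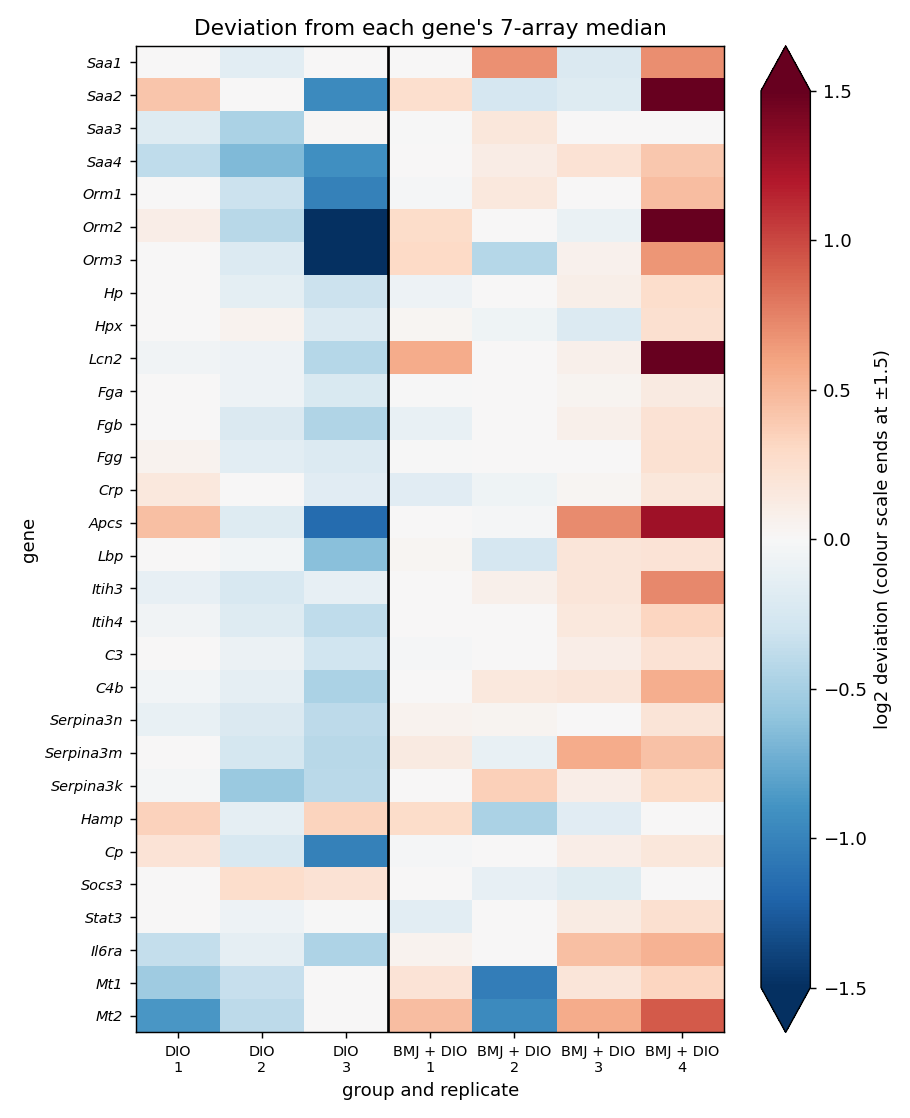
Each row is 1 of the 30 genes and each column 1 liver, coloured by the log2 deviation from that gene's median over the 7 arrays (red above, blue below). The column of BMJ + DIO replicate 4 is red or white throughout and that of DIO replicate 3 mostly blue, while Mt1 and Mt2 are blue in BMJ + DIO replicate 2.

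With both of these livers left out, a choice made after seeing the data, BMJ + DIO replicates 1 to 3 were set against DIO replicates 1 and 2. Of the 30 genes, 25 had a higher mean with the juice. The share of all tested IDs with a higher mean was not computed for this fit. The median difference over the 30 genes was 0.14, against 0.34 with all 7 livers, and over all tested IDs it was -3.33e-05. The same 8 genes as with all livers and Saa3 were without overlap, 9 in all (30%, against 3.80% of all tested IDs), a direction that the earlier separation of the 8 fixes. Saa4 kept a difference of 0.63, Serpina3k of 0.45, Il6ra of 0.41 and Serpina3n of 0.19, while Orm2 was at 0.22 and Apcs at 0.10. In this fit, too, 0 of the 30 genes passed the adjusted threshold in limma, and 4 had an unadjusted p under 0.05 with a higher mean with the juice (against 1.23% of all tested IDs): Saa3, Saa4, Itih3 and Serpina3n.

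Saa4 held an unadjusted p under 0.05 in more of the analyses than any other of the 30 genes. Its difference lay between 0.59 and 0.97 in the analysis as reported and the 16 alternatives, and that p was under 0.05 in each of the 17, although its adjusted p was never under 0.079 (limma). Serpina3n had an unadjusted p under 0.05 in 15 of the 17, Serpina3k in 13 and Il6ra in 12. All 17 reuse the same livers, and those that change only the filter or the variance leave each difference as it was. The share of all tested IDs with such counts was not computed. These counts therefore describe dependence on the processing and are no added evidence for a difference. For Serpina3n it was 0.089 after quantile normalization and 0.304 after cyclic loess (limma). For Il6ra it was 0.066 and 0.103 there, and for Serpina3k 0.076 after cyclic loess (limma). Only Saa4 and Serpina3k had groups without overlap after quantile normalization, and only Saa4 and Orm1 after cyclic loess.

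**Figure D4:**
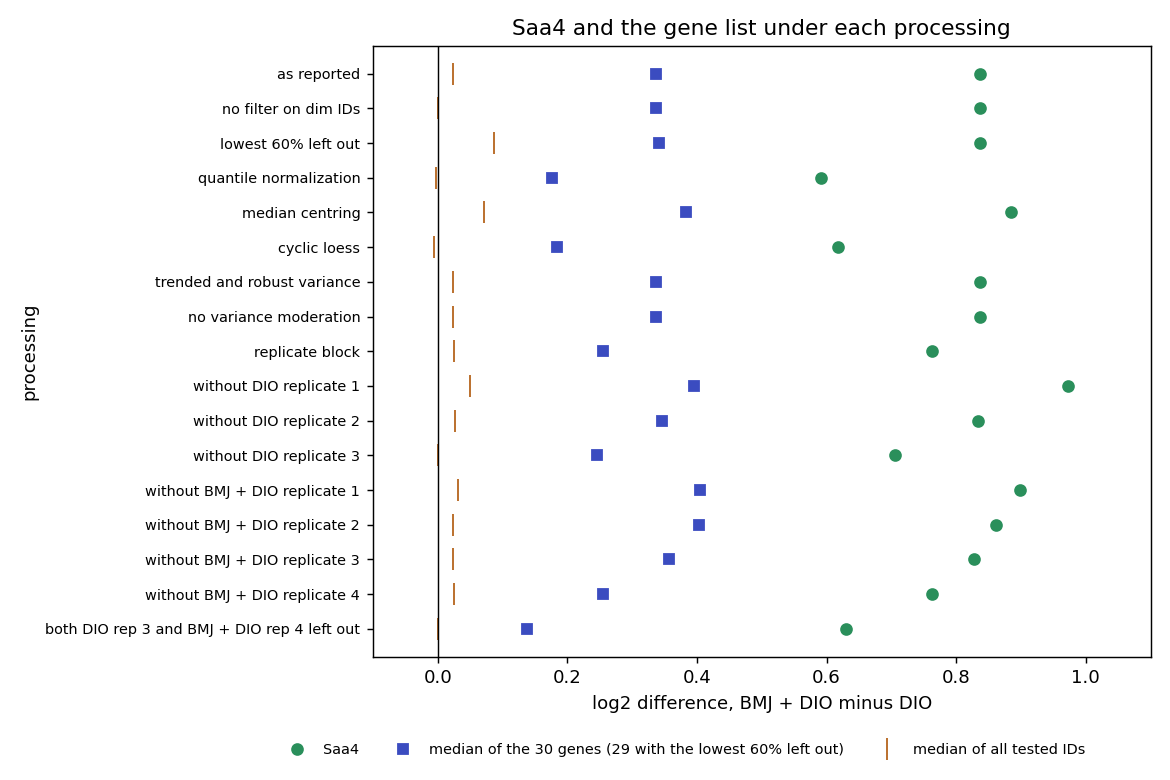
For each processing named on the vertical axis, the horizontal axis gives the log2 difference of Saa4 (circles), the median over the acute phase genes (squares) and the median over all tested IDs (bars). Saa4 stays between 0.59 and 0.97, and the median of the list between 0.14 and 0.40.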

How the data were processed

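Total RNA from the livers of 7 mice was fragmented and biotin-labelled with an Affymetrix kit, per the labels' protocols, and measured on arrays. The deposited log2 values, 1 for each Ensembl gene ID in each liver, were made by the authors with Affymetrix Power Tools and RMA (background correction, normalization across arrays and a summary per gene), per the submitters' processing notes, which name GRCm38 and mm10. Versions, array type and probe grouping are not stated there. Probe intensities, detection calls and scan dates were not used here, so depth and batches were not examined and the number of arrays sets the precision.

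The dimmest 40% of IDs by their average across the 7 arrays (13371 IDs, average below 2.74) were set aside. The other 20055 were fitted with R 4.3.3 and limma 3.58.1 (lmFit, eBayes, group as the sole term, two-sided), with Benjamini-Hochberg adjustment over all of them and a threshold of 0.05. Differences are log2 values of BMJ + DIO minus those of DIO, and fold changes are their antilogs. The code was tested on simulated data. Titles call the samples biological replicates, and groups and numbers were taken from them. The 30 genes, the rule of giving all of them, and the alternatives were chosen with earlier results of these data known. Values on every array are given for 1 or 2 lead genes of each role and for genes with an unadjusted p under 0.05, a 1.5-fold difference or separate groups, and the rest by range. The planned lists of other pathway genes and cell type markers were in symbols and were not tested. Promoters are from RefSeq (GRCm38.p6), aligned with Biopython 1.88.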

Additional observations from a re-analysis of the deposited data

Results flagged for a closer look

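In 3 of the 30 genes 1 of the 4 BMJ + DIO livers lay apart from the other 3 by Dixon's criterion, which by its nominal rate chance alone meets in about 1 group of 20. The share of all tested IDs that meet it was not computed, so whether 3 of 30 is unusual on these arrays is not known. Saa3 read 4.84 in replicate 2, against 4.67 to 4.68 in the others, of which 2 hold the same value. Fgg read 11.59 in replicate 4, against 11.35 to 11.36. Mt1 read 8.06 in replicate 2, against 9.28 to 9.42. Mt2 was also lowest in that liver, at 7.10. The cause was not tested for any of the 3.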

How the results depend on the processing

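The number of genes past the adjusted threshold was 0 of 30 in the analysis as reported and in all 16 alternatives. The other counts moved. Genes with an unadjusted p under 0.05 and a higher mean in BMJ + DIO, 7 as reported, numbered 2 after quantile normalization (against 5.13% of all IDs), 2 after cyclic loess (4.92%), 2 with the replicate block (0.962%), 4 with DIO replicate 3 and BMJ + DIO replicate 4 both left out (1.23%), and 3 (without DIO replicate 3, 1.41%) to 14 (without DIO replicate 1, 20.5%) without 1 array. Those with a lower mean, 1 as reported, numbered 2 after quantile normalization (against 3.69% of all IDs). There were 0 with the lowest 60% left out, which removes Socs3 (2.05%), and 0 with median centring (1.90%). With the block (1.28%) and with both arrays left out (1.62%) there were also 0. Without 1 array they numbered 0 to 1 (1.37% to 8.56%). Genes whose groups did not overlap were 8 higher and 0 lower as reported. After quantile normalization 2 were higher (against 7.15% of all IDs) and after cyclic loess 2 (6.11%), both near the share of all IDs. When 1 array was dropped, 8 to 18 were higher. The 18 came from dropping DIO replicate 1 (against 26.8% of all IDs), and 13 from dropping BMJ + DIO replicate 2 (2.64%). Those lower then numbered 0 to 1 (against 2.25% to 12.8% of all IDs). The 1 was seen on dropping DIO replicate 1 (12.8%) or DIO replicate 2 (3.28%). The 7 genes at least 1.5-fold higher became 4 after quantile normalization (against 2.66% of all IDs) and 3 after cyclic loess (2.29%). They became 3 with the block (3.03%) and 2 with both arrays left out (1.36%). When 1 array was dropped, they ran from 3 to 10. The 3 came from dropping BMJ + DIO replicate 4 (3.03%), and dropping DIO replicate 3 gave 4 (1.44%). The 10 came from dropping DIO replicate 1 (10.4%), and again from dropping BMJ + DIO replicate 2 (4.08%). The median of 0.34 ran from 0.25 to 0.40 without 1 array, was 0.14 with both left out and 0.25 with the block, which also takes out the unpaired BMJ + DIO replicate 4. Median centring moved the median of all IDs from 0.02 to 0.07. The number of genes with a higher mean, 27, ran from 22 after quantile normalization or cyclic loess to 28. The share of all tested IDs with a higher mean was computed only for the analysis as reported (56.3%). The median difference over all tested IDs was -0.00332 after quantile normalization and -0.00599 after cyclic loess.

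Single genes changed sign in 19 of 479 fits. Hpx read -0.0804 after quantile normalization, -0.15 after cyclic loess, -0.0312 with the block, -0.0312 (without BMJ + DIO replicate 4) to 0.117 without 1 array and -0.11 with both left out. Crp read 0.0413 with median centring and -0.0871 to 0.0743 without 1 array. With its sign kept, Crp read -0.277 after quantile normalization, -0.229 after cyclic loess and -0.145 with both left out. After quantile normalization and cyclic loess, Fga read -0.0758 and -0.0778, Fgg -0.00251 and -0.0453, Stat3 -0.13 and -0.14, and Mt1 -0.0109 and -0.0160. Saa2 read -0.27 with both arrays left out. Apart from the filter and the smaller number of arrays, the cause was not tested. Deviations from the group means correlated at -0.36, -0.09 and -0.30 between same-numbered livers of the 2 groups. Livers of different number were not compared in this way, so these values do not decide whether equal numbers share conditions. No label ties equal numbers, so the block is no ordinary pairing. Signal over background was not examined, and 6 of the 30 genes hold a repeated value, among them the dim Saa1, Saa3 and Socs3.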
